A study of Mus musculus with 8 samples.

Results

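The genes described here are 34 genes of glycolysis and of the cellular response to low oxygen, taken by gene symbol from the 55780 rows of the deposited mouse brain expression table. All 34 symbols were found. The symbol Aldoa stands on 2 adjacent rows, so the 34 genes give 35 rows. They are 17 glycolytic enzymes, 2 membrane transporters of glucose and lactate, 3 kinases that regulate the pathway, 4 genes of the oxygen sensor itself and 8 other genes known to be induced by hypoxia.

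Glycolysis splits glucose into pyruvate in the cytosol and yields ATP without oxygen, and lactate dehydrogenase then turns pyruvate into lactate. When oxygen falls, the prolyl hydroxylases that mark HIF-1α and HIF-2α for destruction slow down, and the stabilised factors bind hypoxia response elements near glucose transporter, glycolytic and angiogenic genes. In brain, astrocytes are the more glycolytic cells and neurons take up much of their glucose through GLUT3, the product of Slc2a3.

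The series holds RNA sequencing of brain tissue from C57BL/6 mice, an inbred strain, in 4 libraries of an untreated group (Ctrl) and 4 of a treated group (Ep1). The labels give the Ep1 treatment as PDT, at 10 J/cm2 in Ep1 1 and Ep1 2 and at 20 J/cm2 in Ep1 3 and Ep1 4, while the series title speaks of MNP and its design of magnetic force, so the labels do not settle what was applied. Age, sex, the time after treatment and whether each library came from its own animal are not given in the sources used here, so the p-values below cover only library-to-library spread, which may be technical. No genotype or transgene is named for any group.

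Values are FPKM, fragments scaled to transcript length and library depth, with 15038147 to 17772972 fragments behind each library. The labels also name brain microvessel endothelial cells, but the libraries held neuronal Camk2a at 442 ± 18.4 FPKM in Ctrl against 21.1 ± 3.51 FPKM of endothelial Cldn5 (SD, n = 4 each). They are therefore described as brain tissue. Ctrl 3 stood apart: its mitochondrial genes took 5.08% of fragments against 3.21% to 3.61% in the other 7 libraries, and it was the lowest Ctrl library in 11 of the 18 glycolytic rows. Values without it are given beside the calls and counts it changes. A call means an adjusted p below 0.05 in limma on log2(FPKM + 1), with Benjamini-Hochberg adjustment over the 14710 genes whose mean reached 1 FPKM in Ctrl or in Ep1. Log2 differences are on that scale and so understate how far low genes changed. All 35 rows were tested, but Hk2 and Adm passed the filter only through Ep1. In bulk tissue, fewer cells of a type and less RNA per cell cannot be told apart.

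Treated brains held more RNA of the glucose transporter Slc2a3, the lactate transporter Slc16a3 and the kinase Pfkfb3. RNA of hexokinase, of lactate dehydrogenase A and of the vasodilator peptide gene Adm was also higher. Most of the middle enzymes of glycolysis did not pass the test. Of the 35 rows, 15 were called higher in Ep1, 1 was called lower and 19 were not called. The 15 include the second Aldoa row, and Hk2 and Adm, which were tested only because they reached the filter in Ep1. By the most abundant row of each symbol, 14 of 34 were called higher. Of all genes tested, 15.5% were called higher and 10.6% lower. The median log2 difference was 0.18 over the 35 rows and 0.01 over all genes tested; over the 35 rows it was 0.11 without Ctrl 3 and 0.11 with quantile normalization. In 18 rows every Ep1 library was above every Ctrl library, and in 1 row every Ep1 library was below, against 17.7% and 14.1% of all genes tested. Of the 18 glycolytic rows, 10 were among those above and 7 among those called higher. Without Ctrl 3 the counts were again 15 higher and 1 lower, against 15.8% and 10.8% of the genes tested then; Aldoa entered and Egln1 left. With quantile normalization, 12 members were higher and 2 lower, and the split over all genes went from 2275 higher and 1566 lower to 1946 and 1996.

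**Figure D1:**
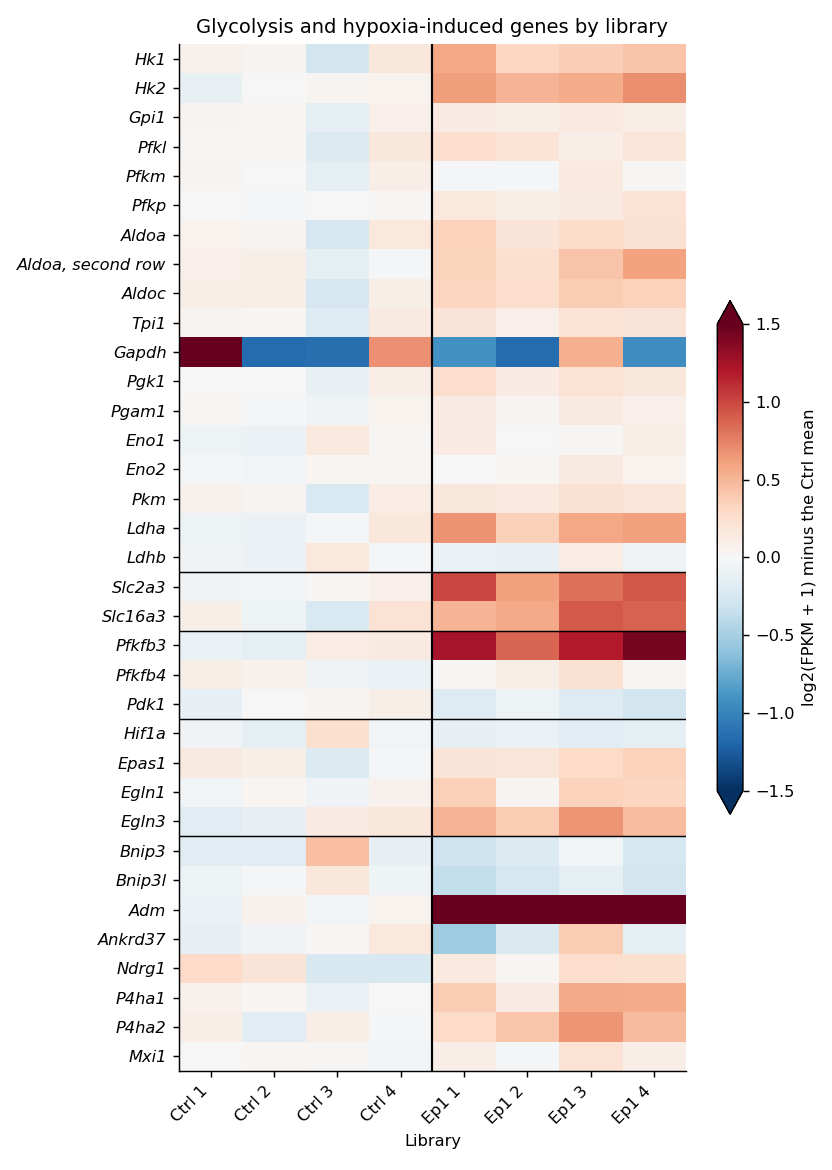
Log2(FPKM + 1) minus the gene's mean in Ctrl (colour, which stops at 1.5 in either direction), for the 35 rows (vertical axis, grouped by role) in the 8 libraries (horizontal axis). Adm, Pfkfb3, Hk2, Slc16a3 and Slc2a3 are higher in all 4 Ep1 libraries, and Gapdh varies within both groups. The other enzymes from Gpi1 to Pkm differ less, by 0.03 (Pfkm) to 0.40 (second Aldoa row) between the group means.

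Promoter windows were read for 30 of the 34 genes from RefSeq (GRCm38.p6), each from 250 bases before to 50 bases after an annotated start. Slc2a3, Epas1, Bnip3l and Ndrg1 had none. Windows are shown for the 5 genes with a window that had the largest log2 differences among the called ones, and for 2 genes of the hypoxia response that were not called, so that both kinds can be read side by side. Pfkfb3 and Ldha have 2 windows each, and the one with more matches to the cores below is shown. Capitals mark ACGTG and GCGTG, which are 2 forms of the core of the hypoxia response element, searched on both strands, so that CACGT and CACGC are the same cores on the other strand. ACGTG also lies inside CACGTG, the E-box. Each sequence runs 5′ to 3′ on the strand of its gene.
Adm, chr7:110627407-110627706, plus strand: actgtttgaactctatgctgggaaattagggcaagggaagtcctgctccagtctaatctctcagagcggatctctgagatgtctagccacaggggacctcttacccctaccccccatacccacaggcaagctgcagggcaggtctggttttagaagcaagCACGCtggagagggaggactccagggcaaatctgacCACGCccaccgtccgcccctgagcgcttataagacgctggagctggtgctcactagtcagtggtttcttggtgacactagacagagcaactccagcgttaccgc
Pfkfb3, chr2:11502041-11502340, minus strand: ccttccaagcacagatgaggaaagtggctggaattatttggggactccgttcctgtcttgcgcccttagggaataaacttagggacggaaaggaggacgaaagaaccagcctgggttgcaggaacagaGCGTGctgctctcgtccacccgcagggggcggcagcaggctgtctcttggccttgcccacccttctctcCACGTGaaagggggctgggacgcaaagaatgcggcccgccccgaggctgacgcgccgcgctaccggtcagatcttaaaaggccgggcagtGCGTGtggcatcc
Slc16a3, chr11:120948817-120949116, plus strand: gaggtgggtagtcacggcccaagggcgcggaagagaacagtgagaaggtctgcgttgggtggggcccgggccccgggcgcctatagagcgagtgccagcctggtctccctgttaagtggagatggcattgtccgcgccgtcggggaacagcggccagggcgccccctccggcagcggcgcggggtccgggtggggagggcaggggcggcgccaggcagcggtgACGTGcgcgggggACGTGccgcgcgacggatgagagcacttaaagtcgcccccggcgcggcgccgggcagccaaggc
Hk2, chr6:82774405-82774704, minus strand: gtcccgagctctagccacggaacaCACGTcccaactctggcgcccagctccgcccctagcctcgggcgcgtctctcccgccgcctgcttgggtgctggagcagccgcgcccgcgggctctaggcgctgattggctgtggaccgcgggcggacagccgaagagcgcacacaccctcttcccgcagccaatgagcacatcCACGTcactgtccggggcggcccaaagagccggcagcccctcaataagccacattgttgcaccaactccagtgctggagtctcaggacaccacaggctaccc
Ldha, chr7:46845554-46845853, plus strand: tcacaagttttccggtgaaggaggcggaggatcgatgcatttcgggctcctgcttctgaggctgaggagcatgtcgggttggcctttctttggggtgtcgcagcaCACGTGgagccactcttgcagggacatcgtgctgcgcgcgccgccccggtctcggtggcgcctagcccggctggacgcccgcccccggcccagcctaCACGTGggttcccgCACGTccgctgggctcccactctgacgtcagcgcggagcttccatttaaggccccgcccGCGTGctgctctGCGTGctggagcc
Ankrd37, chr8:45999801-46000100, minus strand: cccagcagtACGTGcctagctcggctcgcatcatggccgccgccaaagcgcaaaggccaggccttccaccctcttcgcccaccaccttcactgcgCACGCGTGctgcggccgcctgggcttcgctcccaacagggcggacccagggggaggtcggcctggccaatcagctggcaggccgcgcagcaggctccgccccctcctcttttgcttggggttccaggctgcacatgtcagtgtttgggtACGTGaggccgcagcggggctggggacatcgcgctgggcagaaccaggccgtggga
Bnip3, chr7:138909457-138909756, minus strand: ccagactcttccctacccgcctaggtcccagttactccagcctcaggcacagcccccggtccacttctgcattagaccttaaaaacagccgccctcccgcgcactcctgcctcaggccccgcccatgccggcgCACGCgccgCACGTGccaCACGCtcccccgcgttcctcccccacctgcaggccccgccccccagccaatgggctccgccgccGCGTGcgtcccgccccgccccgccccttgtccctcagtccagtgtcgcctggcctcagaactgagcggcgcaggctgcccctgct
Every one of these windows held at least 1 core, those of the 2 genes not called included. Over all genes with a window, 27 of the 30 members (90.0%) held ACGTG or GCGTG in at least 1 window, against 67.6% of the 10125 tested genes with a window and 46.7% of the 27025 genes of the whole promoter table. A gene with more windows has more room for a match. Counted per window, a core was in 80.0% of the 45 member windows, 61.4% of the 13040 of tested genes and 43.8% of all 32851. By gene again, ACGTG alone was in 20 members (66.7%), 29.4% of tested genes and 21.8% of all genes. GCGTG was in 63.3%, 56.0% and 35.2%, and the E-box CACGTG in 16.7%, 11.8% and 8.09%. The windows' median GC content was 62.3% in members, 61.0% in tested genes and 52.7% in all genes. Of the 13 members called higher that had a window, 13 held a core, as did 14 of the other 17. A match is a description of the letters, not evidence that a factor binds there.

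Both membrane transporters, for the entry of glucose and the exit of lactate, were called higher. Slc2a3, which encodes the neuronal glucose transporter GLUT3, read 20.99, 21.2, 21.9 and 22.9 FPKM in Ctrl 1 to 4 and 44.7, 33.9, 39.5 and 42.3 FPKM in Ep1 1 to 4. The lowest Ep1 library was above the highest Ctrl library. The means were 21.8 ± 0.884 and 40.1 ± 4.65 FPKM (SD, n = 4 each), a 1.84-fold difference with a log2 difference of 0.85 ± 0.08 (SE; limma adjusted p = 0.000372). Slc16a3 encodes MCT4, the lactate exporter of glycolytic cells such as astrocytes. It read 1.118, 0.883, 0.702 and 1.32 FPKM in Ctrl and 1.84, 1.95, 2.78 and 2.67 FPKM in Ep1, again without overlap. Its log2 difference was 0.72 ± 0.13 (SE; limma adjusted p = 0.00474), from 1.004 ± 0.269 to 2.31 ± 0.481 FPKM (SD, n = 4 each).

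Of the 12 other sugar and monocarboxylate transporters listed, 9 were tested, 2 were called higher and 1 lower. Slc2a1, the GLUT1 transporter of brain endothelium and astrocytes, rose from 28.7 ± 2.36 to 45.9 ± 7.21 FPKM (limma adjusted p = 0.00351), and Slc2a8, an intracellular hexose transporter, from 10.5 ± 1.07 to 13.6 ± 1.40 FPKM (limma adjusted p = 0.0234). The Slc2a8 call was lost without 1 of Ep1 1, Ep1 3 and Ep1 4 (0.0651 to 0.0697) and without a filter on low values (0.0598). Slc16a7, the high-affinity monocarboxylate transporter MCT2 of neurons, fell from 5.06 ± 0.998 to 2.86 ± 0.380 FPKM (SD, n = 4 each; limma adjusted p = 0.00514).

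Hexokinase phosphorylates glucose and so traps it in the cell. Hk1, the main brain form, read 49.7, 48.9, 38.8 and 53.2 FPKM in Ctrl and 71.3, 58.9, 61.6 and 64.0 FPKM in Ep1. The groups did not overlap, and the log2 difference was 0.42 ± 0.10 (SE; limma adjusted p = 0.0151; 0.33 and 0.0098 without Ctrl 3). Hk2, the inducible form, was far scarcer, at 0.435, 0.558, 0.593 and 0.606 FPKM in Ctrl and 1.38, 1.19, 1.28 and 1.51 FPKM in Ep1. These levels rest on 45 to 136 fragments per library. All 4 Ep1 libraries were above all 4 Ctrl libraries, with means of 0.548 ± 0.0781 and 1.34 ± 0.136 FPKM (SD, n = 4 each), a 2.45-fold difference (limma adjusted p = 0.00228).

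Of the 3 phosphofructokinases, which catalyse the committed step, 1 was called. Pfkp, the platelet form, read 26.4, 26.2, 26.7 and 27.0 FPKM in Ctrl and 29.9, 28.4, 29.3 and 31.1 FPKM in Ep1, without overlap. Its log2 difference was 0.15 ± 0.05 (SE; limma adjusted p = 0.0452), a call lost in 12 of 16 other settings. Leaving out any 1 of Ctrl 1, 2 and 4 or Ep1 1, 3 and 4 gave an adjusted p of 0.0758 to 0.132. Pfkl, the liver form, was at 31.9 ± 3.49 FPKM in Ctrl and 36.3 ± 1.55 FPKM in Ep1 (limma adjusted p = 0.118), and Pfkm, the muscle form and the most abundant of the family here, at 129 ± 9.01 and 132 ± 7.26 FPKM (limma adjusted p = 0.759). Upstream of them, Gpi1, which isomerises glucose 6-phosphate, was at 104 ± 6.81 FPKM in Ctrl and 112 ± 2.23 FPKM in Ep1 without overlap (limma adjusted p = 0.187).

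Aldolase splits the six-carbon sugar. The brain form Aldoc, a gene mostly expressed in astrocytes, read 151, 151, 119 and 151 FPKM in Ctrl and 177, 171, 186 and 181 FPKM in Ep1. Ctrl 3 was the low library, and the groups did not overlap. The log2 difference was 0.33 ± 0.08 (SE; limma adjusted p = 0.0203), and 0.24 without Ctrl 3 (adjusted p = 0.00415). Without 1 of Ep1 1, 3 and 4 the adjusted p was 0.0503, 0.0603 and 0.0589. Aldoa on its main row, the most abundant of the 35 rows, read 507, 502, 409 and 546 FPKM in Ctrl and 618, 558, 592 and 573 FPKM in Ep1. It was not called with all libraries (log2 difference 0.26 ± 0.09, SE; limma adjusted p = 0.0619), but was without Ctrl 3 (0.18; 0.0316) and without Ctrl 4 (0.31; 0.0419). The second row of the symbol, a gene model of 799 bases next to the first and on the same strand, went from 2.21 ± 0.233 to 3.24 ± 0.470 FPKM (SD, n = 4 each; limma adjusted p = 0.0148, and 0.0819 by voom on recovered fragments). That row rests on only 24 to 46 fragments per library.

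Further down the pathway, Pgk1, which makes the first ATP of glycolysis, rose from 149 ± 8.70 to 171 ± 7.10 FPKM (SD, n = 4 each) without overlap. Its call (limma adjusted p = 0.0440) was lost in 11 of 16 other settings, among them without 1 of Ctrl 1, Ctrl 2, Ep1 1, Ep1 3 and Ep1 4 (0.0863 to 0.117). Tpi1, the triose phosphate isomerase, was at 174 ± 16.2 and 196 ± 8.53 FPKM, and Pgam1, the phosphoglycerate mutase, at 170 ± 5.73 and 181 ± 5.60 FPKM. The enolases Eno1 and Eno2, the second of them neuronal, were at 69.5 ± 5.18 and 72.3 ± 3.35 FPKM and at 206 ± 4.58 and 213 ± 9.29 FPKM. Pkm, which encodes pyruvate kinase, was at 222 ± 22.6 and 251 ± 6.09 FPKM. The last 5 genes were not called, with limma adjusted p-values from 0.116 for Pkm to 0.541 for Eno1. Pkm did not overlap between groups; the other 4 did.

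Of the 2 subunits of lactate dehydrogenase, Ldha was called and Ldhb was not. Ldha, the muscle-type subunit favoured in glycolytic cells, read 68.9, 68.4, 71.9 and 81.8 FPKM in Ctrl and 116, 93.1, 109 and 112 FPKM in Ep1. The groups did not overlap, and the means of 72.8 ± 6.24 and 107 ± 10.0 FPKM (SD, n = 4 each) differed 1.48-fold (log2 difference 0.55 ± 0.09, SE; limma adjusted p = 0.00236). Ldhb, the heart-type subunit, read 271, 265, 315 and 277 FPKM in Ctrl and 263, 261, 303 and 272 FPKM in Ep1, which overlap (limma adjusted p = 0.734).

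**Figure D2:**
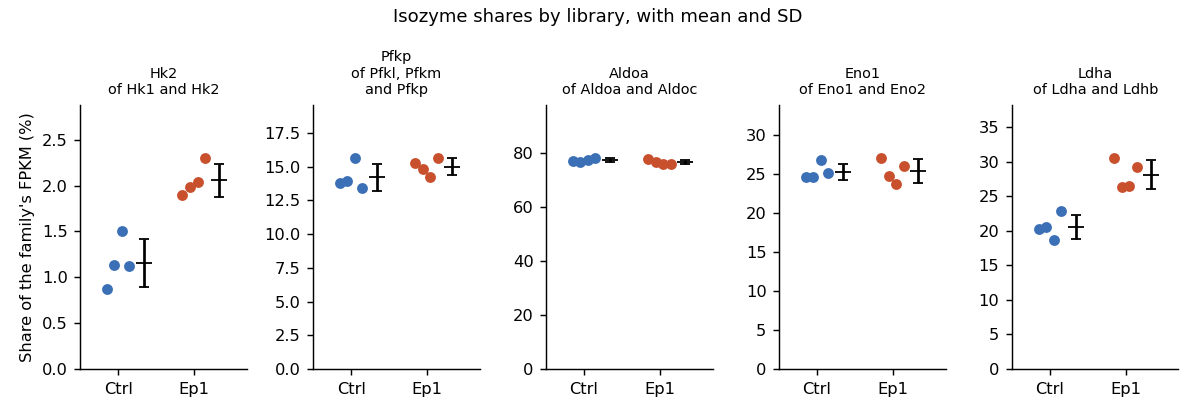
Share of the summed FPKM of each isozyme family taken by 1 isozyme (vertical axis, percent), per library, with Ctrl and Ep1 side by side, the mean and SD beside the points. The shares of Ldha and Hk2 are higher in every Ep1 library than in any Ctrl library, and those of Pfkp, Aldoa and Eno1 overlap; the Eno1 share leaves out reads on its copies.

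Within families, FPKM are per length and can be compared between genes where few reads fall on copies. This does not hold for Eno1 (58.1% to 66.0% of fragments on its own row). Its share may be too low, and which gene the reads on its copies came from was not tested. Ldha made up 20.3%, 20.5%, 18.6% and 22.8% of Ldha and Ldhb in Ctrl and 30.6%, 26.3%, 26.4% and 29.2% in Ep1, a difference in means of 7.59 percentage points. Hk2 made up 1.16 ± 0.263% of Hk1 and Hk2 in Ctrl and 2.06 ± 0.177% in Ep1 (SD, n = 4 each). Both differences gave a two-sided exact permutation p of 0.0286, the smallest that 4 libraries against 4 allow. Adjustment over the 5 families gave 0.0714 for each. Because the other families did not reach that smallest p, even full separation of the groups could not pass after adjustment. The adjusted test therefore cannot decide whether these shares differ. What the values show is that both shares were higher in every Ep1 library than in any Ctrl library. The share of Pfkp among the phosphofructokinases (0.791 percentage points higher in Ep1), of Aldoa in aldolase (77.4% in Ctrl and 76.6% in Ep1) and of Eno1 in enolase (25.3% in both groups) gave two-sided exact permutation p-values of 0.229, 0.143 and 0.914, and 0.286, 0.238 and 0.914 after adjustment.

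Gapdh, the enzyme often used as a reference gene, was listed far below its neighbours in the pathway and varied within each group. It read 26.1, 3.01, 3.06 and 13.3 FPKM in Ctrl and 3.75, 3.01, 11.9 and 3.66 FPKM in Ep1. It was not called (limma adjusted p = 0.526). A search of GENCODE M21 transcripts for near-identical sequence, made after these values were seen, found 77 other rows with a stretch of at least 300 bases at 95% identity or more. The largest, the processed pseudogene row Gm13394, carried 302 to 486 FPKM. Gapdh's own row held 2.55% to 17.6% of the fragments of Gapdh and its copies. With the copies added, Gapdh stood at 499 ± 125 CPM, fragments scaled to library depth, in Ctrl and 514 ± 17.7 CPM in Ep1 (SD, n = 4 each), which overlap, against a ratio of 0.480 between the means on its own row. The level on that row is therefore uncertain.

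**Figure D3:**
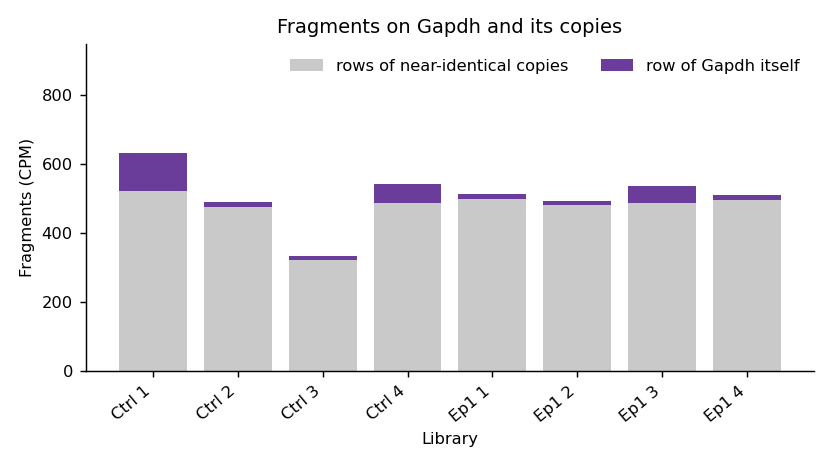
Fragments scaled to library depth (vertical axis, CPM) in each library (horizontal axis) for Gapdh, split into its own row and the rows of near-identical copies. The own row varies from library to library within both groups, while the sum is 334 in Ctrl 3 and 489 to 632 in the other 7 libraries.

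Eno1 had 3 copies in the same search, Eno1b the largest, and the own row of Eno1 held 58.1% to 66.0% of their joint fragments. With the copies the Ep1 to Ctrl ratio of Eno1 was 1.04 and the groups overlapped. Of the members called, Bnip3l had 1 copy and 93.2% to 95.6% of fragments on its own row, and the sum with the copy was still lower in Ep1 without overlap. Pgk1 and Ldha had copies with under 1.5% of the joint fragments. Pfkp matched 1 row, Pitrm1, a gene that overlaps it on the opposite strand. Pitrm1, at 6.36 to 8.23 FPKM per library, was not added to Pfkp.

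Of the 3 regulatory kinases, 1 was called. Pfkfb3 makes fructose 2,6-bisphosphate, the strongest activator of phosphofructokinase, and in astrocytes it is the main form. It read 4.27, 4.13, 5.08 and 5.19 FPKM in Ctrl and 12.3, 9.35, 11.9 and 14.3 FPKM in Ep1. Every Ep1 library was far above every Ctrl library, and the means of 4.67 ± 0.548 and 11.97 ± 2.04 FPKM (SD, n = 4 each) differed 2.56-fold (log2 difference 1.19 ± 0.12, SE; limma adjusted p = 0.000402). Its relative Pfkfb4 was at 3.62 ± 0.277 and 3.93 ± 0.344 FPKM (limma adjusted p = 0.379). Pdk1 inhibits pyruvate dehydrogenase by phosphorylating it. Its level was 7.12 ± 0.503 FPKM in Ctrl and 6.14 ± 0.404 FPKM in Ep1 (SD, n = 4 each), a log2 difference of -0.19 (limma adjusted p = 0.0691). Pdk1 was called lower in 5 of 16 other settings, among them without Ctrl 1 (0.0490) and without Ep1 2 (0.0427).

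Among the genes of the oxygen sensor, Egln3 and Egln1 were called higher, and the HIF subunits were not called. Egln3 encodes PHD3, a hydroxylase that is itself a HIF target. It read 4.34, 4.47, 5.51 and 5.73 FPKM in Ctrl and 7.48, 6.76, 8.47 and 7.23 FPKM in Ep1, without overlap (log2 difference 0.50 ± 0.10, SE; limma adjusted p = 0.00585). Egln1, which encodes PHD2, the main oxygen sensor of the family, read 19.5, 20.6, 19.4 and 21.1 FPKM in Ctrl and 26.1, 20.7, 26.0 and 25.4 FPKM in Ep1. Ep1 2 lay inside the Ctrl range and the other 3 Ep1 libraries above it. The call (log2 difference 0.27 ± 0.08, SE; limma adjusted p = 0.0354) was lost in 10 of 16 other settings, and without any 1 library except Ep1 2 the adjusted p was 0.0530 to 0.0960. Hif1a, the HIF-1α subunit, which is mostly regulated as a protein, was at 11.7 ± 1.54 and 10.5 ± 0.209 FPKM (limma adjusted p = 0.265). Epas1, the HIF-2α subunit of endothelium and astrocytes, went from 21.3 ± 2.32 to 25.4 ± 1.45 FPKM without overlap (SD, n = 4 each; limma adjusted p = 0.0505, and 0.0412 without Ctrl 1).

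Adm encodes adrenomedullin, a vasodilator peptide of vessels and glia, and had the largest ratio of the 35 rows. It read 0.535, 0.708, 0.586 and 0.696 FPKM in Ctrl, from 15 fragments upwards, and 6.13, 4.08, 9.31 and 10.7 FPKM in Ep1. The 2 libraries at 20 J/cm2 were the highest, those at 10 J/cm2 next, and all Ctrl libraries far below. The means were 0.631 ± 0.0846 and 7.56 ± 3.01 FPKM (SD, n = 4 each), 11.98-fold apart (log2 difference 2.32 ± 0.23, SE; limma adjusted p = 0.000515). The 2 prolyl hydroxylases of collagen, P4ha1 and P4ha2, were also called higher. P4ha1 read 11.3, 11.0, 10.1 and 10.9 FPKM in Ctrl and 14.3, 11.9, 16.5 and 16.3 FPKM in Ep1, without overlap (limma adjusted p = 0.0161, and 0.0503 without Ep1 4). P4ha2 went from 2.22 ± 0.285 to 3.44 ± 0.485 FPKM (SD, n = 4 each; limma adjusted p = 0.00941), also without overlap.

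Of the mitophagy receptors, which are well-known HIF targets, Bnip3l was called lower and Bnip3 was not called. Bnip3l, also called Nix, was the 1 row called lower, with 27.1, 27.9, 32.3 and 27.3 FPKM in Ctrl and 21.9, 23.8, 25.9 and 23.5 FPKM in Ep1. All Ep1 libraries were below all Ctrl libraries, and Ctrl 3 was the highest (log2 difference -0.26 ± 0.07, SE; limma adjusted p = 0.0305, and 0.0330 without Ctrl 3). The adjusted p was 0.0502 to 0.0837 without 1 of Ctrl 2, Ep1 1, Ep1 2 and Ep1 4. Bnip3 read 27.4, 26.9, 42.3 and 27.9 FPKM in Ctrl and 24.4, 26.3, 29.6 and 25.2 FPKM in Ep1, which overlap, and was not called (limma adjusted p = 0.293). Ankrd37, an ankyrin-repeat gene, was not called at 1.98 ± 0.250 and 1.80 ± 0.772 FPKM, nor were Ndrg1, a stress-response gene, at 9.40 ± 2.01 and 10.6 ± 0.832 FPKM and Mxi1, an antagonist of Myc, at 9.98 ± 0.239 and 10.8 ± 0.820 FPKM (SD, n = 4 each). Ankrd37 overlaps Ufsp2 and Lrp2bp on the opposite strand. Whether counting used strand is not given in the sources used here, so reads in any shared sequence cannot be told apart. The same holds for Gapdh with Iffo1, Pfkp with Pitrm1, Tpi1 with Spsb2, Pfkm with Senp1, Mxi1 with Gm10197 and both Aldoa rows with Fam57b. Hif1a overlaps Snapc1l on the same strand. Genes not annotated as protein-coding overlap further members, among them Hk1, Hk2, Slc2a3, Pfkfb3, Epas1 and Adm. Overlap was judged over whole genes, introns included.

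**Figure D4:**
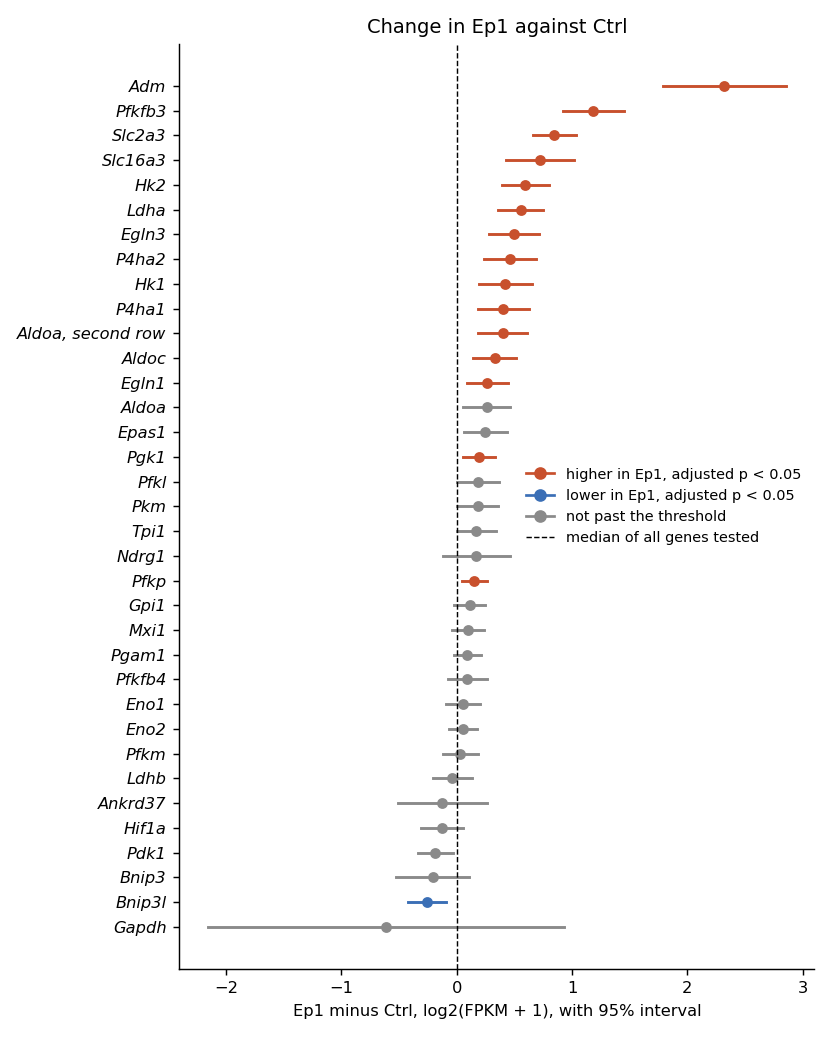
Log2 difference in FPKM + 1 between Ep1 and Ctrl (horizontal axis) with its 95% confidence interval for the 35 rows, ordered by size and coloured by call, the dashed line at the median of all genes tested. Adm, Pfkfb3 and Slc2a3 lie farthest to the right, Bnip3l is the 1 called row left of 0, and the interval of Gapdh is the widest.

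The 2 energies were compared within Ep1 in a fit of 3 groups. At 10 J/cm2 against Ctrl, 6 members were called higher and 0 lower, against 7.29% and 3.26% of all genes tested: Adm, Hk2, Ldha, Pfkfb3, Slc16a3 and Slc2a3. At 20 J/cm2, 12 were called higher and 0 lower, against 13.9% and 9.66% of all genes: these 6, the second Aldoa row, Aldoc, Egln1, Egln3, P4ha1 and P4ha2. Both counts include Hk2 and Adm, which were tested only because they reached the filter in Ep1. Both comparisons share the 4 Ctrl libraries. A call at 20 J/cm2 alone does not show that the energies differ, which was tested directly: of the 35 rows, 0 were called between 20 and 10 J/cm2 by limma, and 0.0068% of all genes were. At an unadjusted p below 0.05 there were 4, Adm, P4ha1, Ankrd37 and Slc16a3, against 6.93% of all genes. The difference was above 0 in 28 of 35 rows and in 52.2% of all genes. Ep1 2, at 10 J/cm2, was the lowest Ep1 library in 13 of the 15 rows called higher in Ep1. With 2 libraries at each energy, its part in these counts cannot be told apart from that of energy.

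**Figure D5:**
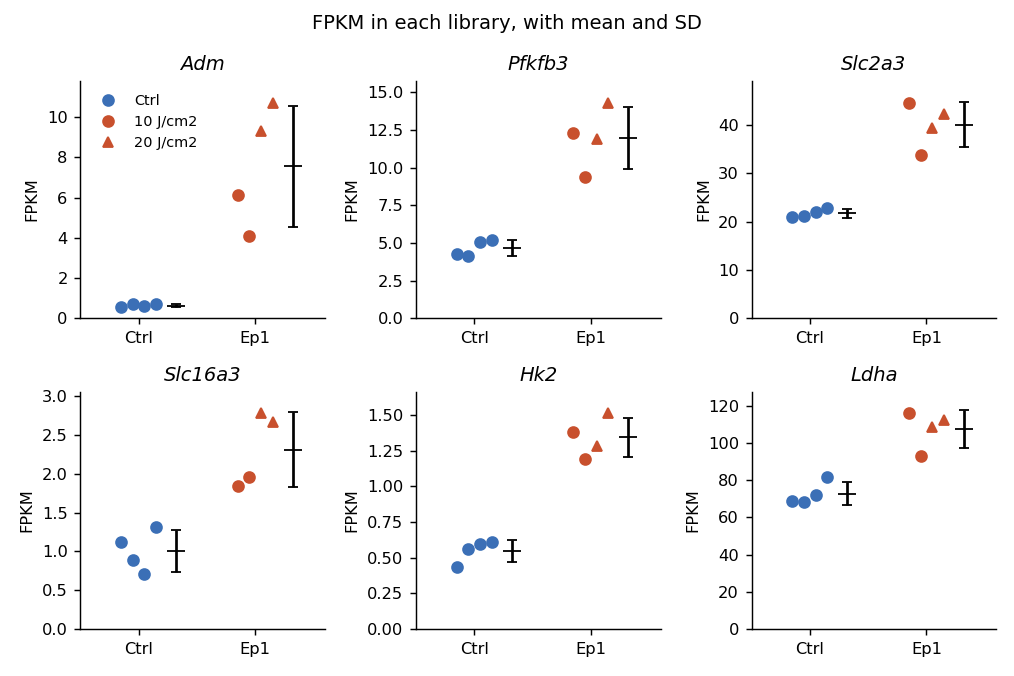
FPKM per library (points) for the 6 called members with the largest log2 differences, with circles at 10 J/cm2, triangles at 20 J/cm2 and the mean and SD beside the points. All Ep1 points lie above all Ctrl points in each panel, and for Adm and Slc16a3 the 20 J/cm2 points lie above the 10 J/cm2 points.

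For Adm the means were 5.10 FPKM at 10 J/cm2 and 10.0 FPKM at 20 J/cm2 (n = 2 libraries each), a log2 difference of 0.87 ± 0.16 (SE; 95% interval 0.50 to 1.24) that did not pass adjustment (limma adjusted p = 0.413). P4ha1 stood at 13.1 and 16.4 FPKM (0.31 ± 0.10; adjusted p = 0.656), Slc16a3 at 1.90 and 2.72 FPKM (0.36; adjusted p = 0.717) and Ankrd37 at 1.31 and 2.30 FPKM (0.50; adjusted p = 0.691). For the other strong responders the intervals of the difference include 0: -0.21 to 0.35 for Slc2a3, -0.20 to 0.37 for Ldha, -0.23 to 0.37 for Hk2 and -0.09 to 0.61 for Pfkfb3. With 2 libraries at each energy, differences within these limits were not resolved.

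Taken as a share of all FPKM, the 17 glycolytic enzymes made up 0.958%, 0.926%, 0.799% and 0.959% in Ctrl and 1.03%, 0.992%, 1.02% and 0.980% in Ep1. All Ep1 libraries were above all Ctrl libraries, with Ctrl 3 the lowest. These sums use each gene's own row. They leave out the copies of Gapdh, at 318 to 505 FPKM per library, and of Eno1, at 132 to 179 FPKM.

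Neighbouring pathways were followed with 8 further gene lists, whose counts are to be read against the 15.5% of all genes called higher and 10.6% called lower. The lists were chosen with earlier results of these data known. Apart from the hypoxia targets, the counts are of a few genes and near or under these shares. Single genes are given, and no list is read as a result, that of the hypoxia targets included. Of 22 other hypoxia target genes listed, 19 were tested, of which 12 were higher and 0 lower, with a median log2 difference of 0.48. Of these 19, 3 passed the filter only through Ep1. Hmox1, haem oxygenase, rose from 2.39 ± 0.320 to 22.8 ± 5.26 FPKM (limma adjusted p = 4.85e-05), and Lox, lysyl oxidase and 1 of those 3, from 0.134 ± 0.0547 to 1.44 ± 0.510 FPKM (limma adjusted p = 0.00133). These genes also respond to oxidative stress or growth factors. Of 10 other genes of the HIF machinery, 2 were higher and 0 lower: Vhl, the ubiquitin ligase subunit that recognises hydroxylated HIF (16.4 ± 0.881 to 22.0 ± 1.51 FPKM; limma adjusted p = 0.00282), and Hif3a, itself a HIF target (1.49 ± 0.137 to 2.57 ± 0.371 FPKM; limma adjusted p = 0.0040). Arnt2, the neuronal partner of HIF-1α, was at 73.1 ± 6.25 and 63.1 ± 2.20 FPKM without overlap (SD, n = 4 each; limma adjusted p = 0.0541). It was called lower with quantile normalization (0.0223), without mitochondrial genes and CT010467.1 (0.0206), by voom (0.0130) and without Ctrl 2 (0.0417). The remaining HIF hydroxylases, Egln2 (limma adjusted p = 0.131) and Hif1an (0.731), were not called.

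Of 10 glycogen genes tested of 11 listed, 2 were higher and 1 lower. Ppp1r3c, which targets protein phosphatase to glycogen and promotes its synthesis, rose from 8.53 ± 0.441 to 21.2 ± 3.68 FPKM (limma adjusted p = 0.000297), and Gys1, glycogen synthase, from 3.92 ± 0.234 to 5.14 ± 0.246 FPKM (limma adjusted p = 0.00587). Phkb, a subunit of phosphorylase kinase, which drives glycogen breakdown, fell from 5.83 ± 0.357 to 4.34 ± 0.302 FPKM (SD, n = 4 each; limma adjusted p = 0.00508). Of the 10 genes of pyruvate dehydrogenase and its regulators, 1 was higher and 0 lower: Pdk4, a kinase that inhibits the complex, rose from 3.24 ± 0.301 to 6.39 ± 1.55 FPKM (limma adjusted p = 0.00411), whereas Pdha1, its catalytic subunit, was at 42.2 ± 1.31 and 39.0 ± 1.26 FPKM and Pdp1, the phosphatase that activates it, at 31.2 ± 5.45 and 35.4 ± 1.26 FPKM, neither called. Pdp1 was called higher without Ctrl 3 (log2 difference 0.29, limma adjusted p = 0.0282), and Pdha1 lower with quantile normalization (0.0248) and without mitochondrial genes and CT010467.1 (0.0468).

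Of 18 genes of the tricarboxylic acid cycle, 2 were higher and 0 lower: Suclg1, a subunit of succinyl-CoA ligase (16.0 ± 0.297 to 20.5 ± 1.46 FPKM; limma adjusted p = 0.00383), and Dlst, a subunit of the 2-oxoglutarate dehydrogenase complex (13.8 ± 0.390 to 17.0 ± 1.40 FPKM; limma adjusted p = 0.0148); Sdhc, a subunit of succinate dehydrogenase, was not called. Of the 7 genes of the pentose phosphate pathway, 0 were called by limma, 0 by voom, and 0 had an unadjusted p below 0.05; Rpe, Pgd and Tkt had the smallest p, and Rpe was called lower without Ctrl 1 (0.0371). Of 8 other glycolytic isozymes and regulators tested of 13 listed, 1 was higher and 0 lower: Pgam2, the muscle mutase (6.48 ± 0.828 to 8.61 ± 1.07 FPKM, SD, n = 4 each; limma adjusted p = 0.0289), a call lost without 1 of Ctrl 1, Ctrl 3, Ep1 1 and Ep1 3 (0.0549 to 0.0821). Adpgk, an ADP-dependent glucokinase, and Pfkfb2, a relative of Pfkfb3, were not called; without Ctrl 3 Adpgk was called higher (limma adjusted p = 0.0230).

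Markers of the cells of the tissue moved with the groups, and their part in the results above was not tested. The summed FPKM of 5 red cell genes ran from 26.1 to 35.9 in Ctrl and from 88.4 to 294 in Ep1 (4 of 5 called higher). That of 5 endothelial genes ran from 28.3 to 37.1 and from 42.8 to 65.8 (3 higher, 1 lower), and that of 5 astrocyte genes from 114 to 132 and from 152 to 171. Of the astrocyte genes Gfap and Aldh1l1 were called higher, while Aqp4, Slc1a3 and Gja1 were not called, and the list's median log2 difference was -0.04. The 4 microglial genes went from 47.3 to 51.8 down to 25.4 to 29.8 (4 lower), and the 4 pericyte genes from 30.0 to 31.2 down to 25.4 to 25.9. Of the 3 pericyte genes tested Rgs5 was called lower, while Pdgfrb (5.89 and 6.21 FPKM) and Kcnj8 (1.102 and 1.54 FPKM) were not called. The 5 neuronal genes, at 1102 to 1211 and 1102 to 1146, and the 5 oligodendrocyte genes, at 718 to 976 and 752 to 962, overlapped between the groups. No marker was at 0 in any library. Of single markers, Gfap of astrocytes rose from 31.7 ± 8.60 to 70.9 ± 7.97 FPKM (limma adjusted p = 0.00274), Cldn5 from 21.1 ± 3.51 to 32.9 ± 6.18 FPKM (0.0205, and 0.0584 without Ep1 3, 0.0610 without Ep1 4 and 0.0506 without a filter) and Hba-a1, which is nearly identical to Hba-a2, from 12.3 ± 1.30 to 77.5 ± 40.3 FPKM (0.00205). Cx3cr1 of microglia fell from 8.97 ± 0.154 to 6.33 ± 0.329 FPKM (0.000799) and Rgs5 of pericytes from 22.4 ± 0.923 to 17.0 ± 0.422 FPKM (SD, n = 4 each; 0.00119), while neuronal Camk2a and oligodendrocyte Mbp were not called. Of the other neuronal genes, Rbfox3 was called higher (54.6 to 66.5 FPKM; 0.0362) and Syt1 lower (195 to 164 FPKM; 0.0358).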

How the data were processed

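Total RNA of brain tissue was sequenced on an Illumina protocol, per the labels' protocols, in 4 Ctrl and 4 Ep1 libraries. The authors deposited 1 table of FPKM for 55780 genes. Bowtie 0.12.2 and the build mm8 stand in the submitters' processing notes with no role, but 99.4% of the 55227 identifiers shared with GENCODE M21 had its GRCm38 start and end, so the coordinates are those of GRCm38; aligner settings, counter and strand are not given in the sources used here. Columns were matched to libraries by name, C to Ctrl and E to Ep1 with the same number. The gene length column gave whole fragments (100% of values within 0.01 of a whole number), 15038147 to 17772972 per library, which were used for depth, voom and copies.

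The members, lists and tests were chosen with earlier results of these data known. All 34 members are named, with up to 3 genes of the smallest p from each of 8 other lists and the first tested gene of each of 7 marker lists; 1 gene this rule names is not reported here. FPKM were analysed as log2(FPKM + 1), keeping genes whose mean reached 1 FPKM in Ctrl or in Ep1, with limma 3.58.1 in R 4.3.3 (trended, robust, no block) and Benjamini-Hochberg adjustment; the energies were compared in a fit of 3 groups. Isozyme shares were tested by two-sided exact permutation. The fit was tested on simulated data with the same spread setting for every gene and few changed genes. There it recovered most changed genes but made somewhat more false calls than the threshold allows. Calls close to the threshold are therefore less firm than their adjusted p. Whether these rates hold for the real libraries was not tested. Copies were found with BLAST+ 2.17.0. Replicate numbers gave no sign of pairing libraries: deviations of same-numbered libraries correlated at -0.05 to 0.06, which cannot exclude a pairing. Alternatives were another pseudocount, other filters, quantile normalization, leaving out mitochondrial genes and CT010467.1, voom, a plain empirical Bayes fit, a replicate block and leaving out each library.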

Additional observations from a re-analysis of the deposited data

Results flagged for a closer look

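In 5 of 70 groups of 4 libraries (35 rows in 2 groups), the highest or lowest library lay so far from the rest that its gap to the nearest library, as a share of the group's range, passed Dixon's 95% critical value. Chance gives about 1 such group in 20. Ctrl 3 was the outlying library 3 times, low for Aldoc (119 FPKM against 151 in each of the other Ctrl libraries, gap share 0.980) and high for Bnip3 (42.3 FPKM against 26.9 to 27.9, gap share 0.938) and for Bnip3l (32.3 FPKM against 27.1 to 27.9, gap share 0.847). Without Ctrl 3, Aldoc was still called higher (limma adjusted p = 0.00415), Bnip3l still lower (0.0330) and Bnip3 still not called (0.559). Ep1 3 was high for Gapdh on its own row (11.9 FPKM against 3.01 to 3.75, gap share 0.917). Ep1 2 was low for Egln1 (20.7 FPKM against 25.4 to 26.1, gap share 0.859).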

How the results depend on the processing

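Of the 16 members called, 9 kept their call in those of the 16 other settings that tested them, which compare Ep1 as a whole with Ctrl: Hk1, Hk2, Ldha, Slc2a3, Slc16a3, Pfkfb3, Egln3, Adm and P4ha2. With the energies taken apart, Hk1 was not called at 10 J/cm2 or at 20 J/cm2 (limma adjusted p = 0.0672 and 0.0589), nor Egln3 (0.0531) and P4ha2 (0.0779) at 10 J/cm2. The other 7 lost it in at least 1 of 16 (Pfkp, Pgk1, Egln1, Bnip3l, Aldoc, P4ha1 and the second Aldoa row), and 3 not called gained a call somewhere (Aldoa, Pdk1 and Epas1); the cause was not tested. Members called lower numbered 1 in the report, 0 without a filter on low values, at 10 J/cm2 and at 20 J/cm2, and 2 with quantile normalization, without mitochondrial genes and CT010467.1, and by voom. Members called higher, 15 in the report, were 12 without a filter and 6 at 10 J/cm2, which rests on 2 treated libraries. Hk2 and Adm passed the report's filter only through Ep1, and Hk2 was not tested when the filter used the mean over all libraries. All-gene calls fell from 3841 to 1551 at 10 J/cm2. Their split of higher and lower was 2275 and 1566 in the report, 1946 and 1996 with quantile normalization, 1950 and 2028 without mitochondrial genes and CT010467.1, and 2137 and 2208 by voom.

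Leaving out 1 library gave 2427 (without Ep1 4) to 4141 (without Ep1 2) calls over all genes, 10 to 15 members called higher and 0 to 2 lower. Between the energies it gave 0 to 1 calls over all genes. With the replicate number as a block, 11 members were called higher and 1 lower and 2726 genes in all, but the numbers gave no sign of pairing the libraries.

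Signs turned for values that were not called. Pfkm was at -0.0088 (log2) with quantile normalization, -0.018 without mitochondrial genes and CT010467.1, -0.0011 by voom, -0.021 at 10 J/cm2 and -0.017 to 0.062 leaving out 1 library. With quantile normalization Pgam1 was at -0.00057, Eno1 at -0.018 and Tkt at -0.0059. At 20 J/cm2 Ldhb was at 0.028 (leaving out 1 library, -0.086 to 0.015), Ankrd37 at 0.12 (-0.29 to 0.0096) and Mbp at 0.054 (-0.14 to 0.056). Camk2a was at -0.039 with quantile normalization, -0.031 without mitochondrial genes and CT010467.1, -0.014 by voom and -0.0085 at 20 J/cm2. The difference in the Eno1 share ran from -0.50 to 0.65 percentage points leaving out 1 library.

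With 2 libraries at each energy and 4 in each group, small differences could not be resolved. Hk2 and Adm in Ctrl and the second Aldoa row in both groups rest on few fragments.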
